A study of Homo sapiens with 6 samples.

Results

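The genes described here are 39 human genes of homologous recombination and the DNA damage response. They were followed in HSC3 cells, a human tongue squamous carcinoma line. The genes were given as a list of symbols, chosen with earlier results of these data known. The shares of the list set beside those of all genes below are therefore descriptive and no independent support. Of the 39, 34 had a gene probe with 1 gene name on the array, out of 18757 named genes in all. RAD51C and FANCF had no probe named here, and FANCI, CHEK2 and TP53BP1 had only a probe that the platform annotation shares with another gene, so that these 5 genes have no value. RNA of 6 HSC3 cultures was labelled with Cy5 and hybridized to 6 one-colour CodeLink arrays, 1 labelled control and 1 each labelled with an siRNA to LEMD1, MIA, MIA2, TANGO and MATE2. LEMD1 belongs to the LEM domain proteins and is a cancer-testis antigen, and MIA, MIA2 and TANGO are names in the melanoma inhibitory activity family. The methods describe the control cells of the array experiment as untreated, whereas the deposited design lists a control siRNA among those transfected. The time from transfection to RNA extraction is not given in the sources used here. Since each condition has 1 array, there is no replicate error, no test and no p-value for any difference below.

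Before the repair genes, the arrays were set beside their labels. The LEMD1 signal was 278 on control, and with LEMD1 siRNA it was near background, 10.1-fold lower by the signal of that spot. It was also near background on the MIA2 siRNA array, 6.57-fold lower by the signal of that spot. It was 11.5-fold higher than control on the TANGO siRNA array and 3.64-fold higher on the MATE2 siRNA array. MIA was near background on all 6 arrays. MIA2 gave 155 on the control array and 169 on the array labelled with its own siRNA, so that this array does not show the reduction its label names. MIA3, one reading of TANGO, had no named probe. SLC47A2, one reading of MATE2, was 25.6-fold lower on the TANGO siRNA array and 19.0-fold lower on the MATE2 siRNA array. The arrays fell into like and unlike pairs. Of the named genes measured on both arrays, 0.650% differed by at least 2-fold between the MIA siRNA array and control, and 0.904% between the MIA2 siRNA and LEMD1 siRNA arrays. The TANGO and MATE2 siRNA arrays stood apart from the other 4, with KRT19, a keratin of simple epithelium, 115-fold and 73.2-fold lower than control and KRT16 7.98-fold and 21.0-fold higher. They were not a like pair. Between them 12.6% of genes differed by at least 2-fold, beside 14.7% for TANGO siRNA and 17.6% for MATE2 siRNA against control. KRT14 was 17.3-fold lower than control on TANGO siRNA and 1.90-fold lower on MATE2 siRNA. All arrays are therefore named by their labels, and the directions below are those of the array so labelled. Of 10 squamous epithelial markers with a named probe, 10 had a good signal on all 6 arrays, as had 4 of 8 fibroblast, 2 of 6 endothelial and 1 of 7 leukocyte markers. The summed signal of the squamous markers was 21738 on control and between 17819 on TANGO siRNA and 52583 on LEMD1 siRNA. That of the fibroblast markers lay between 611 and 1040.1, of the endothelial markers between 454 and 652 and of the leukocyte markers between 244 and 444, and the part of these shifts in the repair gene results was not tested.

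Homologous recombination mends DNA breaks through both strands by copying the sister chromatid, and therefore acts mainly in S and G2 phase. Ends are resected, BRCA1, PALB2 and BRCA2 help to prepare the single strand for invasion of the intact copy, and RAD54 proteins and RecQ helicases act on the joint molecules that follow. The Fanconi anaemia proteins act beside this route on crosslinks between strands, a lesion made by platinum drugs used against head and neck cancer, and the kinases ATM, ATR and CHEK1 halt the cell cycle while repair proceeds.

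The signals are spot brightness above local background, quantile normalized over the 6 arrays. A gene is called measured in a comparison when its brightest probe had a good scanner flag on both arrays, and lower or higher when the log2 ratio to the control array was at least 1 in size, which is 2-fold. On the LEMD1 siRNA array 8 of 33 measured repair genes were at least 2-fold lower (24.2%), beside 3.98% of all 12924 named genes measured, and 1 of 33 was higher, beside 2.03%. The 8 were MSH6, BLM, XRCC2, RAD54B, BRIP1, BRCA2, EXO1 and ERCC1, and the higher one was RAD52. The median log2 ratio of the repair genes was -0.63, beside -0.02 over all named genes, and 27 of 33 were below control. The share of all named genes below control was not counted. Most of these calls lie just past 2-fold, and 2 genes were lower with normexp background correction, beside 2.18% of all genes, and 1 without background subtraction, beside 1.99%. In RNA from whole cultures, fewer cells in one phase of the cycle and less RNA per cell cannot be told apart.

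The MIA siRNA array differed least from control. There, 0 of 32 measured repair genes were at least 2-fold lower or higher, beside 0.258% and 0.391% of all genes. Their log2 ratios lay between -0.83 for FANCA and 0.42 for FANCL, with a median of -0.11.

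On the MIA2 siRNA array, 9 of 28 measured repair genes were lower (32.1%), beside 5.21% of all genes, and 0 were higher, beside 3.29%. The 9 were RAD54B, BLM, XRCC2, BRCA1, MSH6, TOPBP1, FANCC, CHEK1 and RAD51AP1, and the median log2 ratio was -0.56. With normexp correction 5 were lower, beside 2.87% of all genes, and without background subtraction 4, beside 2.63%. A further 5 genes were good on control and near background on this array. Of these, BRCA2 and EXO1 were at least 2-fold lower by their bound, and BARD1 by the plain ratio of its near-background spot.

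The TANGO siRNA array gave the largest number of lower repair genes of the 5 comparisons. It had 14 of 29 lower (48.3%), beside 9.09% of all genes, and 0 higher, beside 5.57%. CHEK1 and BLM had the lowest log2 ratios, and the median was -0.97. Without background subtraction 8 were lower, beside 4.96% of all genes. Another 4 genes were good on control and near background here, and 3 of them were at least 2-fold lower by their bound.

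On the MATE2 siRNA array 12 of 30 were lower, beside 11.7% of all genes, and 0 were higher, beside 5.95%. RAD50 and BRCA1 led this array, and the median log2 ratio was -0.84. With normexp correction 8 of the 12 remained lower, beside 7.57% of all genes, and without background subtraction 8, beside 6.86%. Another 2 genes were good on control and near background here. Of these, BRIP1 was 2.17-fold lower by the plain ratio of its near-background spot, which is not a bound. The medians over all named genes lay between -0.04 and -0.01 on the 5 arrays. All 5 comparisons use the same control array, so that a high control signal of a gene lowers its ratio in each of them.

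At a smaller fold the balance was alike. At least 1.5-fold lower were 18 repair genes on LEMD1 siRNA beside 12.4% of all genes, 1 on MIA siRNA beside 2.36%, 14 on MIA2 siRNA beside 16.1%, 17 on TANGO siRNA beside 20.2% and 18 on MATE2 siRNA beside 22.4%. At least 1.5-fold higher were 1 on LEMD1 siRNA beside 8.17%, 0 on MIA siRNA beside 2.51%, 1 on MIA2 siRNA beside 11.6%, 3 on TANGO siRNA beside 15.5% and 0 on MATE2 siRNA beside 15.2%. RAD52 was the gene above control on LEMD1 and MIA2 siRNA, and ERCC4, NBN and RAD51B were the 3 on TANGO siRNA.

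**Figure D1:**
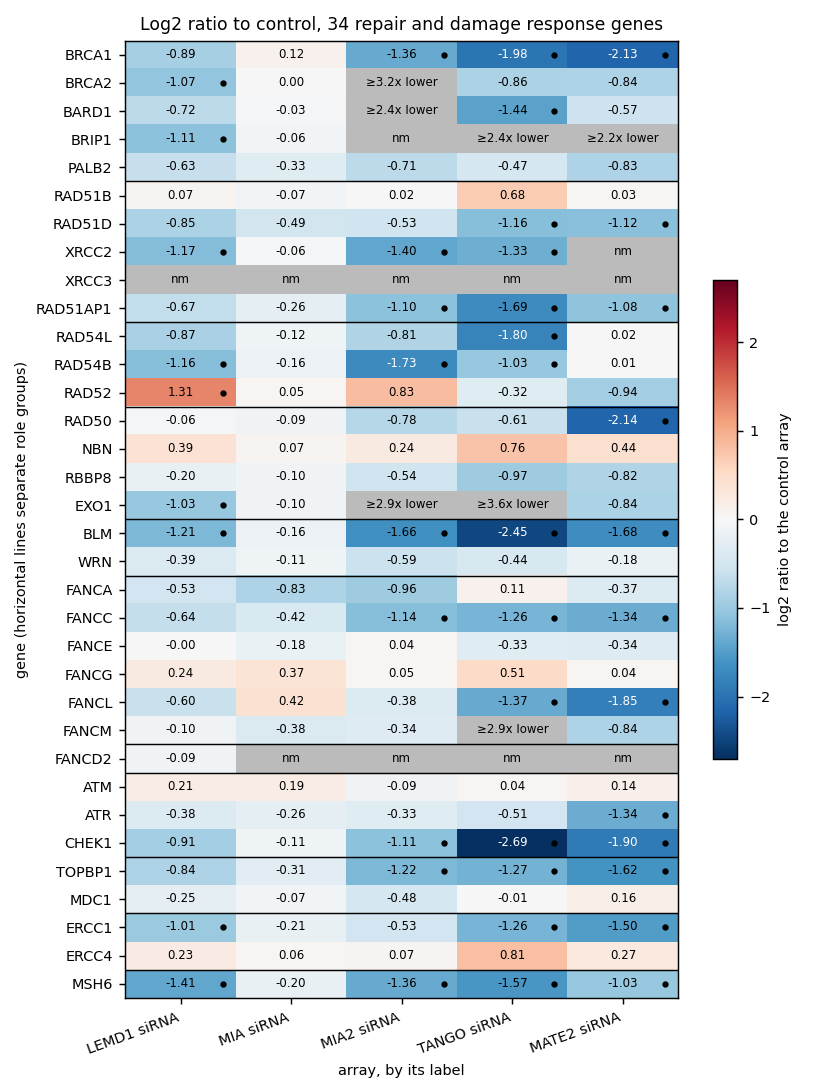
Log2 ratio to the control array (colour and printed value) of the 34 repair genes with a named probe, in rows by role, on the 5 siRNA arrays, in columns. A dot marks at least 2-fold, and nm means not measured on both arrays. A grey cell with a fold is a lower bound for a gene near background. The exceptions are BARD1 on MIA2 siRNA and BRIP1 on MATE2 siRNA, whose folds are plain ratios of a near-background spot. The MIA siRNA column has no dot, and the TANGO siRNA column has 14, down to -2.69 for CHEK1.

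Of the 33 genes measured in at least 1 comparison, 20 were at least 2-fold from control in 1 or more (60.6%), beside 29% of 13289 named genes. At least 2-fold lower on 3 or more arrays were 10 of the 33 (30.3%), beside 2.2% of all genes, all against the same control array. BLM and MSH6 were lower on 4 arrays, 8 genes on 3 arrays, 2 on 2 arrays and 7 on 1 array, and the remaining 15 of the 34 on none. These 15 include XRCC3, measured in 0 comparisons, and FANCD2, measured in 1. Bounds from spots near background are not counted here, so that a gene may be lower on more arrays than its count. Only RAD52 was called higher. Among the 26 genes with a good spot on all 6 arrays, the highest of the 6 signals was on the control array for 13, and the lowest was on MATE2 siRNA for 10, on TANGO siRNA for 7 and on MIA2 siRNA for 5. The same counts were not made over all named genes. The robust SD of the log2 ratio over all named genes was also widest on MATE2 and TANGO siRNA, at 0.65 and 0.61. These counts are therefore not read as a trait of the repair genes.

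The promoters of the 4 genes with the largest ratio in size, CHEK1, BLM, RAD50 and BRCA1, are shown so that the start regions of the genes that differed most from control can be set side by side. Each is 300 bases, 250 before and 50 from the annotated start on, from RefSeq on GRCh38.p14, written along the gene's strand. The start is the most downstream one listed, of 3 for CHEK1, 2 for BRCA1 and 1 each for BLM and RAD50. Windows at the other starts were not searched. Capitals mark the CCAAT box, CCAAT or its reverse complement ATTGG.
CHEK1, chr11:125626106-125626405, plus strand: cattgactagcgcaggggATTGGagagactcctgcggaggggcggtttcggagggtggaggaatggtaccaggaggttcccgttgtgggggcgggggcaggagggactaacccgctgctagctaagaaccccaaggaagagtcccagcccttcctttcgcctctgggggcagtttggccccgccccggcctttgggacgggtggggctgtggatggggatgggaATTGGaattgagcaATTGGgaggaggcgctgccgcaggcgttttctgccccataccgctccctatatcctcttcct
BLM, chr15:90717096-90717395, plus strand: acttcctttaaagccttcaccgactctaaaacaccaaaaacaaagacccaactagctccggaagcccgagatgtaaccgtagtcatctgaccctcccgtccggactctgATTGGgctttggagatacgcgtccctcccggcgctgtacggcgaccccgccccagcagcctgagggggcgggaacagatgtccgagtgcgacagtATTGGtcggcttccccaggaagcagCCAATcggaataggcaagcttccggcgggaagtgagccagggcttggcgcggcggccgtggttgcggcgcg
RAD50, chr5:132556727-132557026, plus strand: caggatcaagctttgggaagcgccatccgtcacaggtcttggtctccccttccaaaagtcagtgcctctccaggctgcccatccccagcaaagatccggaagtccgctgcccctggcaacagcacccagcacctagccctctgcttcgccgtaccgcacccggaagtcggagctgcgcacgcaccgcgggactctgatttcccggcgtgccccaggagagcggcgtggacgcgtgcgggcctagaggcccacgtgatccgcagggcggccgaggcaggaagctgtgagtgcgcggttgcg
BRCA1, chr17:43125315-43125614, minus strand: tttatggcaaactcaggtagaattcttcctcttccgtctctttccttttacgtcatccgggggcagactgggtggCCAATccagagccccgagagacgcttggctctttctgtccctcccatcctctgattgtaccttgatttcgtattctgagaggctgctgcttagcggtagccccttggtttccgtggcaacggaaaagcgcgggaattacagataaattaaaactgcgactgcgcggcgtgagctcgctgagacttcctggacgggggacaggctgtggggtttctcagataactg

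CHEK1 and BLM each held 3 CCAAT boxes in this window, BRCA1 held 1, and RAD50 held none of the motifs searched. Over the list, 35 of 39 genes had a promoter window, and 1 window per gene was searched, that of its most downstream start. A CCAAT box lay in the windows of 16 of 35 genes (45.7%), beside 35.4% of all 27305 genes with a window. The CHR element TTTGAA, known from late cell cycle promoters, was in 2 of 35 (5.71%), BRIP1 and MDC1, beside 15.8% of all genes and 17 of 25 genes of a G2 and mitosis list. The E2F letters TTTCGCGC or TTTGGCGC were in 1 of 35 (2.86%), TOPBP1, beside 1.12% of all genes and 9 of 25 genes of an S phase list. Both strands were searched, and none of these motifs contains another. A match is a run of letters in a window and not a bound site, and windows without one may hold other forms of the motif.

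In what follows the 6 signals of a gene are always given in the order control, LEMD1, MIA, MIA2, TANGO and MATE2 siRNA. BRCA1, an E3 ubiquitin ligase that promotes resection and recombination, had signals of 248, 134, 269.9, 96.3, 62.8 and 56.5. Control and MIA siRNA were the high arrays, and BRCA1 was 1.86-fold lower on LEMD1 siRNA, 2.57-fold on MIA2 siRNA, 3.95-fold on TANGO siRNA and 4.39-fold on MATE2 siRNA. BARD1, the partner that forms the ligase with BRCA1, had 118, 72.1, 116, 48.5, 43.6 and 80.01, of which the MIA2 siRNA value was near background. It was 2.71-fold lower on TANGO siRNA and, by the plain ratio of its near-background spot, 2.44-fold lower on MIA2 siRNA. Its log2 ratios were -0.72 on LEMD1 siRNA and -0.57 on MATE2 siRNA. A dimmer BARD1 probe was good on MIA2 siRNA and read -0.09 there, with 0.14 on MIA siRNA and -0.31 on MATE2 siRNA. This probe was near background on LEMD1 and TANGO siRNA. The MIA2 siRNA fold of BARD1 thus rests on the brightest probe. BRCA2, a mediator that acts on the resected strand, had 124, 59.0, 125, 36.4, 68.6 and 69.4. It was 2.11-fold lower on LEMD1 siRNA, at least 3.22-fold lower on MIA2 siRNA, where it was near background, and 1.81-fold and 1.79-fold lower on TANGO and MATE2 siRNA. BRIP1, a helicase that binds BRCA1, had 76.6, 35.6, 73.3, 7.79, 19.9 and 35.4, the last 3 near background. Its value was 2.15-fold lower on LEMD1 siRNA, and by its bounds at least 1.98-fold and 2.44-fold lower on MIA2 and TANGO siRNA. On MATE2 siRNA its near-background spot gave a plain ratio, 2.17-fold lower, and not a bound. PALB2, which links BRCA1 with BRCA2, had 349, 226, 279, 213, 252 and 197 and passed 2-fold on none of the arrays, with log2 ratios from -0.33 on MIA siRNA to -0.83 on MATE2 siRNA. All 5 of these genes were below control on LEMD1 siRNA, as were the 4 measured on TANGO, the 4 on MATE2 and the 2 on MIA2 siRNA. On MIA siRNA 3 were below control and 2 above it. The same count was not made over all named genes.

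Of the genes of the paralog complexes, which help to form and steady the filament on the resected strand, XRCC2 had signals of 326, 145, 313, 124, 130.1 and 171. XRCC2 was 2.25-fold, 2.64-fold and 2.51-fold lower on LEMD1, MIA2 and TANGO siRNA. Its MATE2 siRNA spot carried an irregular flag and was left out, and a dimmer XRCC2 probe read -1.29 there and -1.39 on LEMD1 siRNA. RAD51D had 164, 90.7, 117, 113, 73.5 and 75.3, and was 2.23-fold and 2.18-fold lower on TANGO and MATE2 siRNA. RAD51B went the other way on 1 array. It stayed between 181 and 199 on 5 arrays and was 304 on TANGO siRNA, a log2 ratio of 0.68 that did not reach 2-fold. XRCC3 was near background on all arrays but MATE2 siRNA, where it gave 53.7, and has no ratio. RAD51AP1, a cofactor that stimulates strand invasion, had 381, 239, 319, 178, 118 and 181. It was lower on the MIA2, TANGO and MATE2 siRNA arrays, by 2.14-fold, 3.23-fold and 2.11-fold.

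RAD54L and RAD54B, motor proteins that act in strand invasion on chromatin, differed by at least 2-fold between the TANGO and MATE2 siRNA arrays. So did 12.6% of all named genes measured on both. RAD54L had 214, 117, 197, 122, 61.6 and 217. Its log2 ratio on MATE2 siRNA was 0.02, and TANGO siRNA was the low array, 3.48-fold lower. RAD54B had 218, 97.4, 194, 65.7, 106 and 219. It was 2.23-fold, 3.31-fold and 2.04-fold lower on LEMD1, MIA2 and TANGO siRNA, and its log2 ratio on MATE2 siRNA was 0.01. RAD52, which anneals single strands, had 99.8, 248, 103, 177, 79.99 and 52.1. It was above control on LEMD1 siRNA, with a log2 ratio of 1.31, and on MIA2 siRNA, with 0.83, and below it on MATE2 siRNA, with -0.94. A second good RAD52 probe read 0.72, 0.44 and 1.13 on the same 3 arrays, so that the 2 probes opposed each other on MATE2 siRNA.

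**Figure D2:**
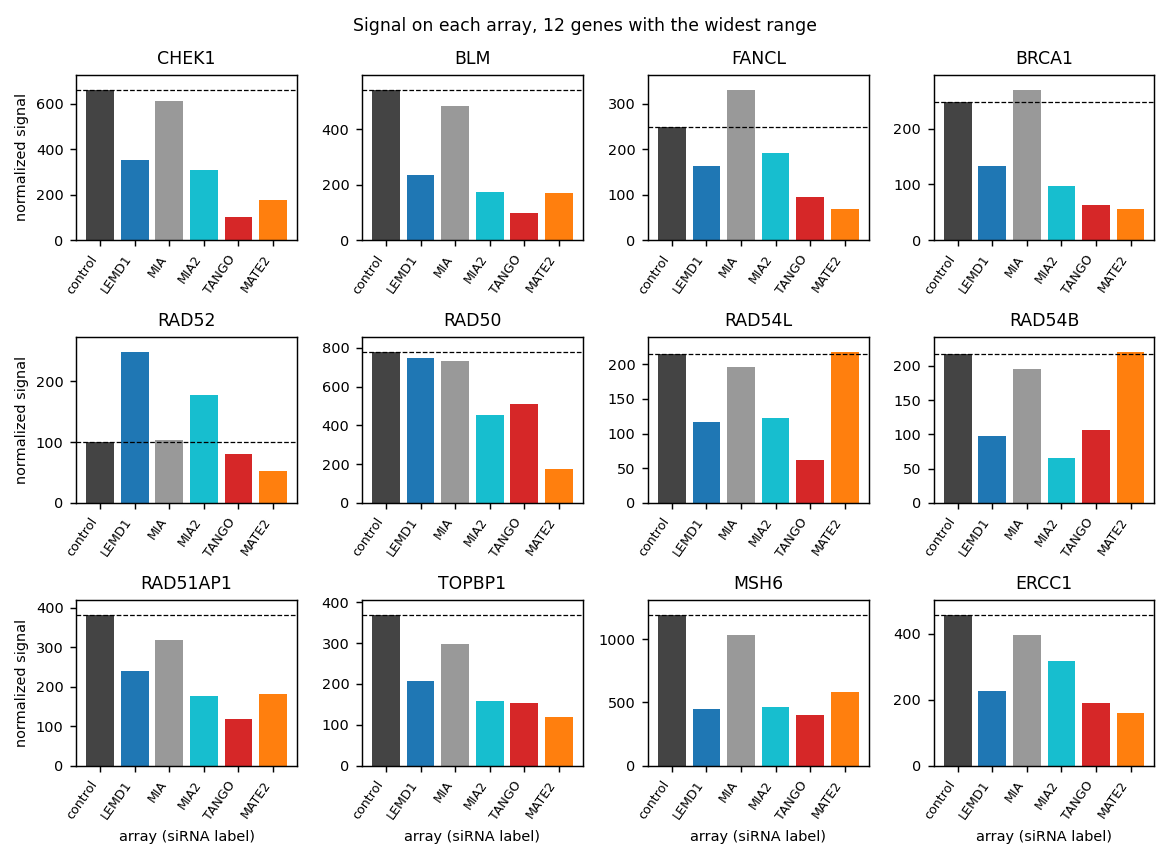
Normalized signal (linear, from 0) on each of the 6 arrays for the 12 repair genes with a good spot on every array and the widest range of log2 signal; the dashed line is the control array, and each bar is 1 array. CHEK1 is lowest on TANGO siRNA at 103, RAD50 stands low on MATE2 siRNA alone at 176, RAD54L and RAD54B return to the control level on MATE2 siRNA, and RAD52 is above control on LEMD1 and MIA2 siRNA.

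Break ends are sensed by the complex of MRE11, RAD50 and NBN, and resected with RBBP8 and EXO1. RAD50 had signals of 777, 747, 732, 454, 509 and 176. The MATE2 siRNA array stood alone, 4.41-fold below control and at least 2-fold below each of the other 5 arrays, while the other ratios lay between -0.78 and -0.06. NBN had 341, 446, 358, 403, 578 and 463, all 5 siRNA arrays above control, with a largest log2 ratio of 0.76 on TANGO siRNA. A dimmer NBN probe read 1.097 there and 1.045 on MATE2 siRNA. MRE11, which is not on the list, had log2 ratios of -0.69, -0.32, -1.03, -0.91 and -1.08 on LEMD1, MIA, MIA2, TANGO and MATE2 siRNA. The 3 subunits of this complex thus did not move alike. RBBP8 had 1437, 1255, 1343, 989.7, 734 and 816 and passed 2-fold nowhere, with a lowest log2 ratio of -0.97 on TANGO siRNA. EXO1, a nuclease of long resection and mismatch repair, had 114, 55.7, 106, 34.99, 21.2 and 63.3, with MIA2 and TANGO siRNA near background. It was 2.04-fold lower on LEMD1 siRNA and at least 2.94-fold and 3.62-fold lower on MIA2 and TANGO siRNA.

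The helicase BLM, which takes apart joint molecules without crossing over, was lower on 4 of the 5 siRNA arrays. Its signals were 542, 235, 484, 172, 99.1 and 169. Control and MIA siRNA were the high pair, and the 4 others were 2.31-fold, 3.15-fold, 5.47-fold and 3.21-fold lower. WRN, the related helicase of Werner syndrome, had 116, 88.5, 108, 77.1, 85.6 and 102, and its log2 ratios of -0.59 to -0.11 did not reach 2-fold.

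Among the Fanconi anaemia core genes, whose complex adds ubiquitin to FANCD2 and FANCI, FANCC had 323, 207, 242, 146, 135 and 128. It was 2.21-fold, 2.39-fold and 2.53-fold lower on MIA2, TANGO and MATE2 siRNA. FANCL, the catalytic subunit of the complex, had 248, 164, 331, 191, 96.0 and 68.8. It was above control on MIA siRNA, with a log2 ratio of 0.42, and 2.58-fold and 3.60-fold lower on TANGO and MATE2 siRNA. FANCA, FANCE and FANCG passed 2-fold on no array. FANCA ranged from 54.2 on MIA2 siRNA to 114 on TANGO siRNA, FANCE from 153 on MATE2 siRNA to 199 on MIA2 siRNA and FANCG from 125 on control to 178 on TANGO siRNA. FANCM, the motor protein that anchors the complex to chromatin, was near background on TANGO siRNA with a signal of 17.7, at least 2.87-fold lower. On the other siRNA arrays it ranged from 50.4 on MATE2 siRNA to 83.8 on LEMD1 siRNA, at log2 ratios of -0.84 to -0.10. FANCD2 had 42.5 on control, close to the lowest good signal of 34.2 on that array, and was measured on LEMD1 siRNA alone, with a log2 ratio of -0.09. The genes of the core complex and its anchor thus included lower ones, FANCC, FANCL and, by a bound on TANGO siRNA, FANCM. The ratios of FANCA, FANCE and FANCG kept within 2-fold, with FANCA at -0.96 on MIA2 siRNA.

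In the checkpoint arm, CHEK1, the kinase that ATR activates to hold the cell cycle, had the lowest log2 ratio of all repair genes measured. Its signals were 663, 352, 614, 308, 103 and 178. It was 1.88-fold lower on LEMD1 siRNA, 2.15-fold on MIA2 siRNA, 6.46-fold on TANGO siRNA and 3.73-fold on MATE2 siRNA. TOPBP1, the activator of ATR, had 368, 206, 298, 158, 152 and 119. It was 2.33-fold, 2.42-fold and 3.08-fold lower on MIA2, TANGO and MATE2 siRNA, with a log2 ratio of -0.84 on LEMD1 siRNA. ATR itself had 174, 134, 145, 139, 123 and 69.0, and MATE2 siRNA was the low array, 2.53-fold lower. ATM, the kinase that answers breaks, kept within 2-fold by its brightest probe. This probe ranged from 634 on MIA2 siRNA to 778 on LEMD1 siRNA around a control of 674, with log2 ratios of -0.09 to 0.21. A dimmer ATM probe read -0.12, -0.22 and -0.17 on LEMD1, MIA and TANGO siRNA and was near background on MIA2 and MATE2 siRNA. Its signal was 73.7 on control, 50.4 on MIA2 siRNA and 27.1 on MATE2 siRNA, where the lowest good signal was 31.4. By that probe ATM was thus more than 2-fold lower on MATE2 siRNA. MDC1, which binds marked chromatin at breaks, ranged from 297 on MIA2 siRNA to 462 on MATE2 siRNA around a control of 414.

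The nuclease of ERCC1 and ERCC4, which cuts at crosslinks and bulky adducts, had 1 subunit below control and, by its brightest probe, 1 above it. ERCC1 had 456, 227, 396, 317, 191 and 161. It was 2.01-fold, 2.39-fold and 2.83-fold lower on LEMD1, TANGO and MATE2 siRNA. Of 2 dimmer ERCC1 probes, one read -0.85, -1.34 and -1.48 on these arrays and the other 0.52 on LEMD1 siRNA and -0.69 on TANGO siRNA, so that the LEMD1 siRNA call rests on the brightest probe. ERCC4 had 162, 189, 168, 170.2, 283 and 195, highest on TANGO siRNA, where its log2 ratio was 0.81. A second good ERCC4 probe read 0.55 there, 0.07 on LEMD1 siRNA, 0.13 on MIA siRNA, -0.13 on MIA2 siRNA and -0.31 on MATE2 siRNA. MSH6, which recognizes mismatches, had 1188, 448, 1035, 463, 399 and 582. Control and MIA siRNA were again the high arrays, and MSH6 was 2.65-fold, 2.57-fold, 2.98-fold and 2.04-fold lower on LEMD1, MIA2, TANGO and MATE2 siRNA.

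Several genes have more than 1 probe, and these were compared. Of the 34 genes 25 had 1 probe and 9 had several. The other good probes had the same sign as the brightest one in 5 of 7 cases on LEMD1 siRNA, 4 of 8 on MIA siRNA, 3 of 5 on MIA2 siRNA, 4 of 6 on TANGO siRNA and 3 of 5 on MATE2 siRNA. Where the brightest probe was past 2-fold, the other probes were too in 1 of 4, 1 of 2 and 1 of 1 cases on LEMD1, TANGO and MATE2 siRNA. The calls of XRCC2 on LEMD1 siRNA and of ERCC1 on TANGO and MATE2 siRNA were thus met by another probe, and those of RAD52 and ERCC1 on LEMD1 siRNA were not.

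**Figure D3:**
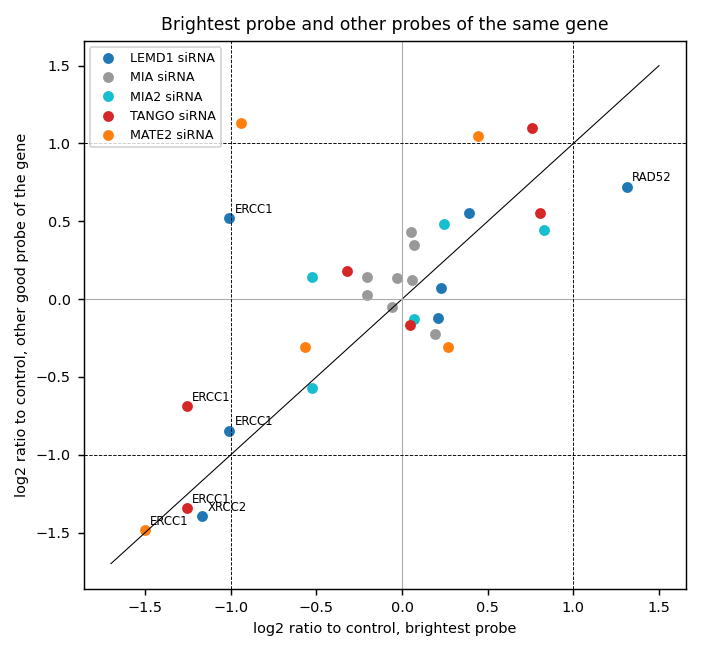
Log2 ratio to control of the brightest probe of a gene (x axis) against that of each other good probe of the same gene (y axis), coloured by siRNA array; the solid line is equality, dashed lines mark 2-fold, and genes past 2-fold by their brightest probe are named. ERCC1 lies near the line on TANGO and MATE2 siRNA with one probe at -1.34 and -1.48, and above it on LEMD1 siRNA with another at 0.52.

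The siRNA arrays were also set against each other, which leaves the control array out. Between the MIA2 and LEMD1 siRNA arrays 0 of 28 repair genes differed by 2-fold, beside 0.605% of all genes lower and 0.299% higher on MIA2 siRNA. Between the MATE2 and TANGO siRNA arrays 1 of 28, RAD50, was lower on MATE2 siRNA, beside 6.73% of all genes, and 2, RAD54L and RAD54B, were higher, beside 5.9%. On TANGO siRNA against LEMD1 siRNA 5 of 29, CHEK1, BLM, RAD51AP1, BRCA1 and RAD52, were lower, beside 7.52% of all genes, and 0 higher, beside 7.03%. On MATE2 siRNA against LEMD1 siRNA 4 of 30, RAD50, FANCL, BRCA1 and RAD52, were lower, beside a similar 10.2% of all genes, and 1, RAD54B, was higher, beside 6.49%. The second good RAD52 probe gave 74.8 on LEMD1, 51.2 on TANGO and 99.2 on MATE2 siRNA. It thus fell short of 2-fold on TANGO siRNA and went the other way on MATE2 siRNA. With the MIA siRNA array as comparator in place of control, 7 of 32 repair genes were lower on LEMD1 siRNA beside 2.9% of all genes, 5 of 28 on MIA2 siRNA beside 3.14%, 10 of 29 on TANGO siRNA beside 7.56% and 8 of 30 on MATE2 siRNA beside 9.23%. BLM was among them on all 4 arrays, as was BRCA1.

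The spread of log2 ratios depends on signal, and repair genes were therefore set beside all named genes of like signal. Below the central 90% of genes at their level were 9 of 33 repair genes on LEMD1 siRNA, 2 of 32 on MIA siRNA, 10 of 28 on MIA2 siRNA, 8 of 29 on TANGO siRNA and 6 of 30 on MATE2 siRNA. Above it was 1 gene, RAD52 on LEMD1 siRNA. By construction about 5% of all named genes lie below the band and about 5% above it on each array. The 2 of 32 on MIA siRNA are near that share. The robust SD of the log2 ratio over all named genes was 0.42 on LEMD1 siRNA, 0.25 on MIA siRNA, 0.53 on MIA2 siRNA, 0.61 on TANGO siRNA and 0.65 on MATE2 siRNA, a width that holds real differences as well as noise.

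**Figure D4:**
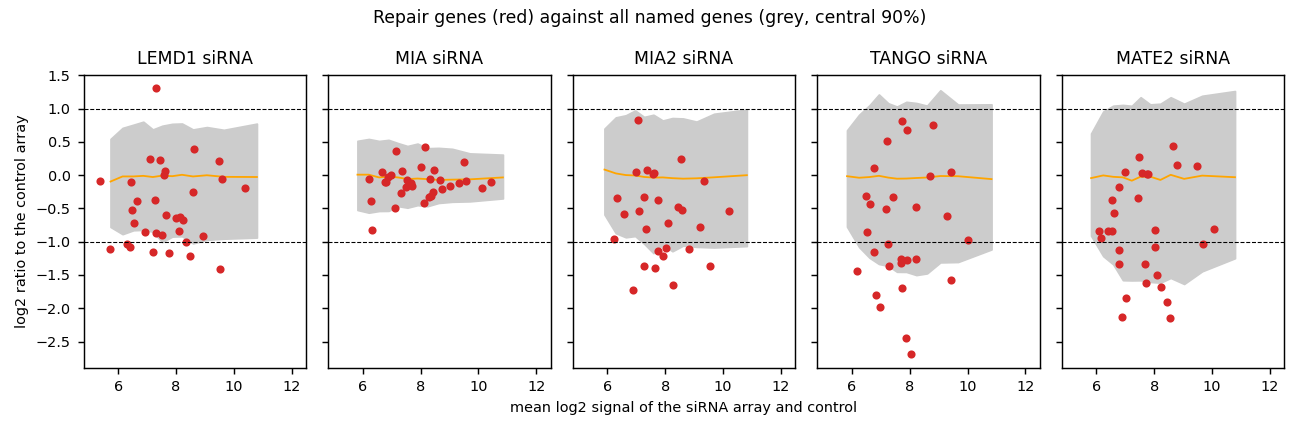
Log2 ratio to control (y axis) against the mean log2 signal of the siRNA and control arrays (x axis) for each measured repair gene (red), with the central 90% (grey) and median (orange line) of all named genes at that signal; dashed lines mark 2-fold. On MIA siRNA 2 of 32 genes lie under the band, and on MIA2 siRNA 10 of 28 do, beside about 5% of all named genes by construction.

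Other genes of the same pathways, not on the list, were read in the same way. Of 82 further repair and signalling genes with a named probe, 2 of 69 measured were lower on LEMD1 siRNA (2.90%), beside 3.98% of all genes. There 1 was higher (1.45%), beside 2.03%. On MIA siRNA 0 of 70 passed either way, beside 0.258% lower and 0.391% higher. On MIA2 siRNA 5 of 65 were lower (7.69%), beside 5.21%, and 1 higher (1.54%), beside 3.29%. On TANGO siRNA 11 of 66 were lower (16.7%), beside 9.09%, and 1 higher (1.52%), beside 5.57%. On MATE2 siRNA 18 of 65 were lower (27.7%), beside 11.7%, and 3 higher (4.62%), beside 5.95%. Their median log2 ratios were -0.25, -0.05, -0.41, -0.47 and -0.16 in the same order. SEM1, a small partner of BRCA2 and of the proteasome, was above control on 4 of the 5 siRNA arrays, with log2 ratios of 1.26, -0.01, 1.46, 1.499 and 1.004. On MATE2 siRNA BRCC3, a deubiquitinase of a BRCA1 complex, was at -2.29 and the nuclease MUS81 at -1.81. End joining and other excision repair genes had medians of -0.29, -0.15, -0.55, -0.41 and -0.42.

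Genes of DNA replication and of mitosis were read beside the repair genes since many recombination genes are known to be expressed mainly in cycling cells. Of the S phase genes, 9 of 24 were lower on LEMD1 siRNA (37.5%), beside 3.98% of all genes, and 0 of 25 on MIA siRNA, beside 0.258%. On MIA2 siRNA 13 of 23 were lower (56.5%), beside 5.21%. On TANGO siRNA 17 of 24 were lower (70.8%), beside 9.09%, and on MATE2 siRNA 7 of 24 (29.2%), beside 11.7%. Their medians were -0.76, -0.07, -1.08, -1.41 and -0.51 on LEMD1, MIA, MIA2, TANGO and MATE2 siRNA. Of the G2 and mitosis genes, 12 of 30 were higher on LEMD1 siRNA (40%), beside 2.03% of all genes, with a median of 0.77. On MIA2 siRNA 8 of 28 were higher (28.6%), beside 3.29%, with a median of 0.47, and none was lower on either array. On TANGO siRNA 13 of 20 of them were lower (65%), beside 9.09%, with a median of -1.30. On MATE2 siRNA 4 of 26 were lower (15.4%), beside 11.7%, and 1 higher (3.85%), beside 5.95%, with a median of -0.19. On LEMD1 and MIA2 siRNA the medians of the repair and S phase genes were thus below control and that of the mitotic genes above it, though 6 of 33 and 6 of 28 repair genes were above control and, on MIA2 siRNA, 4 of 28 mitotic genes below it. On TANGO siRNA all 3 medians were below control. On MATE2 siRNA the repair genes had a lower median, -0.84, than the S phase genes. The part of the cell cycle lists in the repair gene values was not tested.

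**Figure D5:**
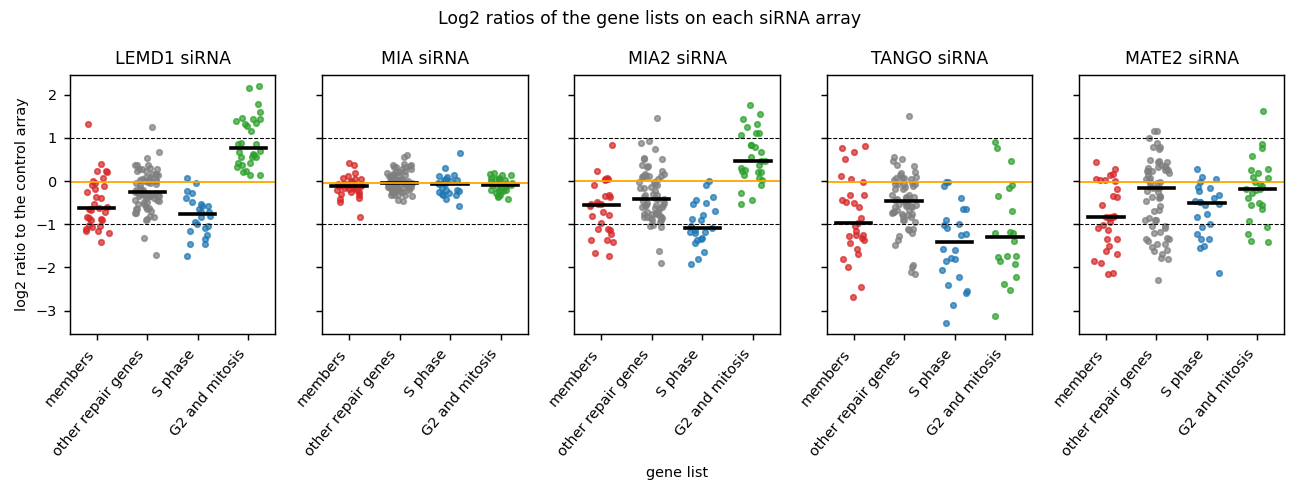
Log2 ratio to control of each measured gene (points) and list median (black bar) for the repair genes described here (members), other repair genes, S phase genes and G2 and mitosis genes, with 1 panel per siRNA array; dashed lines mark 2-fold and the orange line is the median of all named genes. The G2 and mitosis median is 0.77 on LEMD1 siRNA and -1.30 on TANGO siRNA, while the repair gene median is below control in each panel, from -0.11 on MIA siRNA to -0.97 on TANGO siRNA.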

How the data were processed

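Total RNA of HSC3 cells was hybridized to 6 CodeLink arrays, 1 per condition, grouped by the labels. The authors deposited 1 scanner file per array with spot intensity values, written by CodeLink Expression Analysis 5.0.0.31312. The intensity used is the spot mean less the median local background, which was checked and held within 0.0001. The authors also deposited a quantile normalized table of intensity values, used here as an alternative. A fold against a spot near background was taken against the higher of its own signal and the lowest good signal of its array. It is a bound where the lowest good signal is the higher, and otherwise the plain ratio of a spot without a good flag. Good gene spots ranged from 27545 on MIA2 siRNA to 30628 on LEMD1 siRNA, and precision is limited by having 1 array per condition.

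Of 53423 gene probes, 320 masked on any array were left out. Values were quantile normalized over the 6 arrays, floored at 1 and set on a log2 scale (numpy 2.4.6, pandas 2.3.3). The brightest probe by mean log2 signal stood for a gene. Of the 53103 probes used, 23311 were named by the platform annotation, updated to current RefSeq symbols, and 649 by sequence accession, while 898 with several genes and 28245 without a name were left out. A difference of 2-fold was the rule for a call. The script that makes the calls was checked on simulated data, which says nothing of error rates in these arrays. All 6 signals are given for each repair gene past 2-fold in any comparison, and others by range. The genes and lists were chosen with earlier results of these data known. Alternatives were median scaling, pairwise quantile normalization, normexp background correction with an offset of 50 (limma 3.58.1), no background correction, the deposited table, 3 other filters on flags or brightness, 50 added to the signal, the mean over probes, 2 other comparators, normalization without the TANGO and MATE2 siRNA arrays, and a 1.5-fold rule. The platform's probe sequences were not used here. Some genes of the companion lists are not reported here.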

Additional observations from a re-analysis of the deposited data

How the results depend on the processing

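With 1 array per condition no array could be left out within a group, and background limits which genes have a ratio. No paired analysis was possible because each group has 1 array and the groups share 1 replicate number only. Counts kept within 1.5-fold and medians within 0.1 of the values reported under the deposited table, pairwise quantile normalization and the mean over probes, where LEMD1 siRNA had 7 lower genes in place of 8, and without the TANGO and MATE2 siRNA arrays in the normalization, and the causes of the shifts below were not tested. Scaling by the median moved the TANGO siRNA median to -1.07, while the median of all genes there moved to -0.12. Under normexp the lower genes were 2 on LEMD1 siRNA, where 0 were higher, and 5 on MIA2 siRNA, with medians of -0.47 on LEMD1, -0.76 on TANGO and -0.54 on MATE2 siRNA. Without background correction 1 was lower and 0 higher on LEMD1 siRNA, and 4 and 8 were lower on MIA2 and TANGO siRNA, with medians of -0.47, -0.43, -0.75 and -0.51 on LEMD1, MIA2, TANGO and MATE2 siRNA. With 50 added, 2 were lower and 0 higher on LEMD1 siRNA, beside 2.24% and 1.16% of all genes. The medians were -0.48 there, -0.77 on TANGO and -0.55 on MATE2 siRNA. With bright probes alone, 3 were lower and 0 higher on LEMD1 siRNA, and 5, 6 and 7 were lower on MIA2, TANGO and MATE2 siRNA, beside 4.40%, 6.496%, 10.8% and 14.2% of all genes lower, with medians of -0.71 on MIA2 and -1.03 on MATE2 siRNA; this setting tests fewer genes. With a good flag on 1 array or no flag filter, 14 were lower on MIA2 siRNA in both, beside 7.28% and 10.2% of all genes. On MATE2 siRNA 1 was higher in both, beside 8.57% and 11.2%. The medians were -0.78 and -0.74 on MIA2 and -1.16 and -1.21 on TANGO siRNA. With the MIA siRNA array as comparator, 5 were lower on MIA2 siRNA, and the medians were -0.33, -0.42, -0.84 and -0.67 on LEMD1, MIA2, TANGO and MATE2 siRNA. With the other 5 arrays' median in place of control, 0, 1, 5 and 4 were lower on LEMD1, MIA2, TANGO and MATE2 siRNA, beside 1.54%, 1.88%, 6.13% and 8.29% of all genes. In that setting 4 were higher on MIA siRNA, beside 1.44%, and 1 on MATE2 siRNA, beside 4.47%. The medians were then 0.15, 0.40, -0.29, -0.48 and -0.38 on LEMD1, MIA, MIA2, TANGO and MATE2 siRNA. BLM on LEMD1 siRNA turned to 0.45 and MSH6 on MATE2 siRNA to 0.33, against a comparator that itself includes siRNA arrays. At 1.5-fold, 18, 1 and 14 were lower on LEMD1, MIA and MIA2 siRNA, and 1 and 3 were higher on MIA2 and TANGO siRNA.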
